A study of Homo sapiens with 3 samples.

Results

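The genes described here belong to the LEFTY, TGF-beta, activin and BMP signaling pathways. They are the ligands *TGFB1*, *TGFB2*, *TGFB3*, *LEFTY1*, *LEFTY2*, *INHBA* and *BMP4*, the signal carrier *SMAD3*, the inhibitory *SMAD7* and the target gene *ID1*. They were selected with their fold changes on these arrays in view, so their values are given as a description, with no test. A probe was taken for a gene when its RefSeq accession mapped to the symbol of that gene. This gave 11 probes for 10 of the 22439 RefSeq symbols on the array, with 2 probes for *LEFTY2* and 1 for each of the other genes.

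A549 cells, an established line of human lung adenocarcinoma, were transfected with Lipofectamine RNAiMAX, and the cells were harvested as 3 groups. The mock group received the transfection reagent alone, and the other groups received *miR-139-5p* or *miR-139-3p*, at the 10 nM that the methods state for every miRNA precursor. Total RNA was labelled with Cy3 and hybridised to 1 Agilent array for each group. How long after transfection the RNA for the arrays was taken is not given in the sources used here.

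With 1 array per group, the differences have no replicate check, no p-values are given, and precision is limited by the small number of arrays. Slide 1 carried the arrays of mock and *miR-139-5p*, whereas slide 2 carried that of *miR-139-3p*. Slide and transfection therefore cannot be told apart for *miR-139-3p*. Both comparisons use the same mock array, so their values are set side by side and not related to each other. RNA came from whole cultures, in which fewer cells expressing a gene and less RNA per cell cannot be told apart.

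TGF-beta superfamily ligands are secreted dimers that bind type I and type II receptor kinases, which phosphorylate SMAD proteins that enter the nucleus with SMAD4 and change transcription. TGF-beta and activin signal mainly through SMAD2 and SMAD3, and BMPs through SMAD1, SMAD5 and SMAD9, while LEFTY proteins are secreted antagonists of NODAL signaling. In lung epithelial tumor cells, TGF-beta is known both for restraining growth and for promoting epithelial-mesenchymal transition.

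The transfected miRNAs are the strands of one hairpin and are shown because they define the groups. Their mature sequences, from RefSeq on assembly GRCh38.p14, are written 5′ to 3′ with the seed (bases 2 to 8) in capitals. The hairpin lies on the minus strand of chromosome 11, with *miR-139-5p* at chr11:72615102-72615124 and *miR-139-3p* at chr11:72615066-72615088.
hsa-miR-139-5p: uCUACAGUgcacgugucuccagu
hsa-miR-139-3p: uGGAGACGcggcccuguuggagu
The seeds differ: 2 of 7 bases are the same when they are aligned by position.

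Signals are given as normalized log2 signal, the log2 of the processed intensity relative to the 75th percentile of the array, so that 0 is that percentile. A log2 fold change is the difference of this value from mock, and a gene is called higher or lower when it is past 0.5 on the log2 scale. A probe was measured in a comparison when it was well above background on both arrays. Where it was so on 1 array, the value of the dim array was replaced by the array's lowest well-above signal, or by the probe's own if that was higher, which gives a bound. The error given as ± is the spread between spots of one probe within an array, taken from probes with several spots at a like signal. It holds no spread between cultures.

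With *miR-139-5p*, *LEFTY1* and *TGFB3* were higher and *BMP4* and *TGFB1* were lower, and *INHBA* was higher as a bound. With *miR-139-3p*, *TGFB1* was lower, and none of the other 6 measured genes passed the threshold. In counts, 8 of the 10 genes were measured with *miR-139-5p*, of which 2 were higher and 2 lower. Over 14311 genes measured in that comparison, 10.2% were higher and 11.5% lower. For *miR-139-3p*, 7 of the 10 could be measured, of which 0 were higher and 1 was lower. Over the 14376 genes measured there, 23.9% were higher and 28.9% lower. Since the genes were selected on these contrasts, nothing is read from their shares. The median log2 fold change of the measured members was -0.11 with *miR-139-5p*, where that of all genes was 0.00, and 0.09 with *miR-139-3p*, where that of all genes was -0.09.

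**Figure D1:**
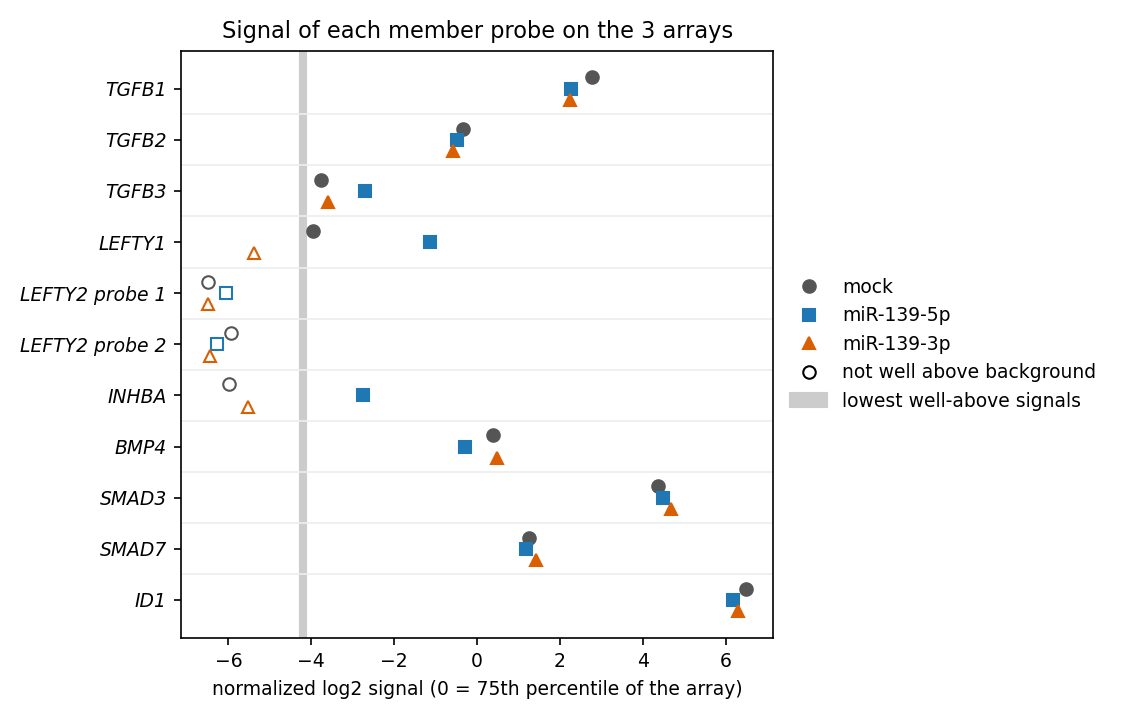
Normalized log2 signal (x axis, 0 at the 75th percentile of the array) of the 11 probes (y axis) for mock (circles), then miR-139-5p (squares), then miR-139-3p (triangles), with open symbols where a probe was not well above background and a gray band over the lowest signals of well-above probes on the 3 arrays. The LEFTY1 and INHBA probes stand apart on the miR-139-5p array, at -1.13 and -2.74, and both LEFTY2 probes are open on all 3 arrays.

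*TGFB1* encodes the most widely expressed TGF-beta ligand. Its normalized log2 signal was 2.77 for mock cells, 2.26 after *miR-139-5p* and 2.25 after *miR-139-3p*. Both transfected arrays lay below mock. The log2 fold change was -0.52 ± 0.07 with *miR-139-5p*, 1.43-fold lower than mock, and -0.53 ± 0.07 with *miR-139-3p*, 1.44-fold lower. Both values are closer to the threshold than the spot error. Of 14376 genes, 50.5% lay farther from 0 than *TGFB1* with *miR-139-3p*, against 20.4% of 14311 with *miR-139-5p*. It was below mock in both comparisons under each of the 12 other settings that give a gene value, from -0.74 to -0.34 with *miR-139-3p* and from -0.59 to -0.40 with *miR-139-5p*.

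*TGFB2*, a second TGF-beta isoform, had normalized log2 signals of -0.34 on the mock array, -0.49 with *miR-139-5p* and -0.59 after *miR-139-3p*. Its log2 fold changes of -0.15 ± 0.09 and -0.25 ± 0.10 did not pass the threshold.

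*TGFB3*, the remaining isoform, was near the lower limit of measurement, with processed signals of 6.90 on the mock array, 13.5 with *miR-139-5p* and 6.74 after *miR-139-3p*. The *miR-139-5p* array was the high one, and the other arrays were close to each other. On the normalized log2 scale the signals were -3.76, -2.71 and -3.59. The log2 fold change was 1.05 ± 0.29 with *miR-139-5p*, 2.07-fold higher than mock and at rank 216 from the highest of 14311 genes. With *miR-139-3p* it was 0.18 ± 0.32, and its sign depends on the scaling: it was -0.36 with quantile normalization, -0.37 with the deposited log2 values and -0.03 without scaling. With normexp background correction, the *TGFB3* value with *miR-139-5p* was 0.17.

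*LEFTY1* encodes a secreted antagonist of NODAL that is itself a member of the TGF-beta superfamily. The processed signal of its probe was 6.02 on the mock array, 40.8 with *miR-139-5p* and 1.94 after *miR-139-3p*. The probe cleared background for mock and for *miR-139-5p*, and it was not well above background for *miR-139-3p*. Normalized log2 signals were -3.96, -1.13 and -5.39 in that order. With *miR-139-5p* its log2 fold change came to 2.83 ± 0.25, or 7.13-fold higher than mock, the highest of the 14311 genes measured on both arrays, and it was also the highest under each other scaling tried. This rests on 1 spot per array, with the mock signal just above the lowest well-above signal of -4.28. With normexp, which starts from the median intensity of spot and local background and adds an offset of 50, the value was 0.61 and ranked 288. Without a filter on dim probes it ranked 5 of 22180 genes. With *miR-139-3p*, *LEFTY1* was at least 1.21-fold lower, a bound that does not reach the threshold.

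*LEFTY2*, the close paralog of *LEFTY1*, was not well above background on any of the 3 arrays with either of its 2 probes. Processed signals lay between 0.903 and 1.53, so no fold change is given. Whether the *LEFTY1* probe also hybridises with *LEFTY2* RNA was not tested. *NODAL*, the ligand that LEFTY proteins oppose, was likewise not well above background on any array.

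*INHBA* encodes the beta A subunit that forms activin A. Its probe was printed as 10 spots on each array, so every array gives 10 readings of the same RNA. On the mock array the spots ran from 1.06 through a median of 1.20 to 3.34, and 0 of 10 cleared background. On the *miR-139-5p* array they ran from 10.8 through a median of 13.4 to 15.4, and 10 of 10 cleared it. On the *miR-139-3p* array they ran from 1.04 through a median of 1.84 to 2.99, again with 0 of 10. The *miR-139-5p* spots did not overlap those of either other array, while the mock and *miR-139-3p* spots overlapped each other. *INHBA* was at least 2.90-fold higher with *miR-139-5p* than with mock, a log2 bound of 1.53 set by the lowest well-above signal of the mock array. The measured means were -2.74 and -6.00 on the normalized log2 scale, with SDs between spots of 0.14 and 0.59. No fold change is given with *miR-139-3p*, since both arrays were dim. Spots of one array share one labelled RNA and are not replicates of the transfection.

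**Figure D2:**
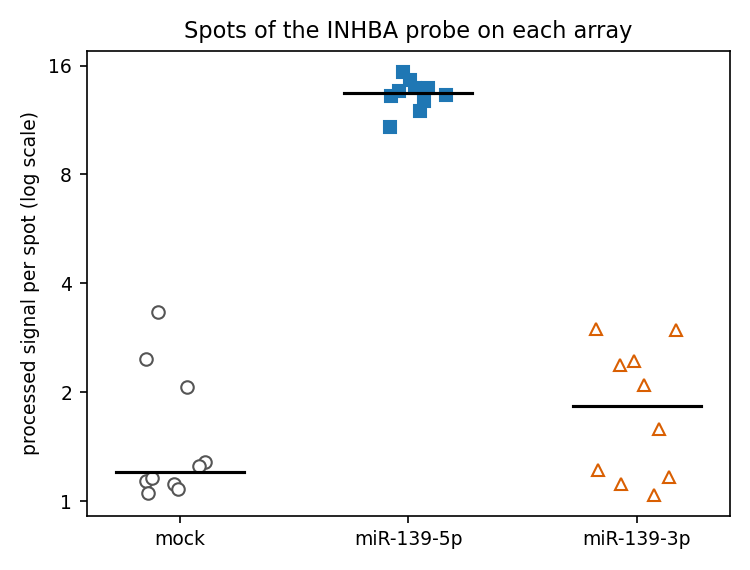
Processed signal (y axis, log scale, arbitrary units) of the 10 spots of the INHBA probe on each array (x axis), with a bar at the median and open symbols for spots not well above background. The miR-139-5p spots lie between 10.8 and 15.4, above the highest mock spot at 3.34 and the highest miR-139-3p spot at 2.99.

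*BMP4* encodes a BMP ligand active in lung development. It had normalized log2 signals of 0.38 on the mock array, -0.28 with *miR-139-5p* and 0.47 after *miR-139-3p*. The *miR-139-5p* array was the low one. The log2 fold change was -0.67 ± 0.09 with *miR-139-5p*, 1.59-fold lower than mock, and 0.09 ± 0.09 with *miR-139-3p*. With normexp, the *miR-139-5p* value was -0.38.

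The other ligands were taken from a list of 114 superfamily genes compiled from general knowledge with the members included, of which 112 had a probe. Of the members and the other genes examined by name, 27 of 44 with a value passed the threshold with *miR-139-3p*. After *miR-139-5p*, 28 of 46 did, and with normexp 11 and 16 of these no longer did. Of all genes, 23.9% were higher and 28.9% lower with *miR-139-3p*, and 10.2% and 11.5% after *miR-139-5p*. Part of the genes were named for their large change, so nothing is read from these counts. Beside the members, 8 of 26 ligands were measured with *miR-139-5p*, with 3 lower and 0 higher, and 10 with *miR-139-3p*, with 2 lower and 4 higher. With the members counted, 5 of 13 were lower and 2 higher after *miR-139-5p* (38.5% and 15.4%, beside 11.5% and 10.2% of all genes). With normexp these became 1 and 1, beside 4.39% and 3.61% of all genes. With the added E1A scaling, the one to spike-in probes well above background, they became 3 and 3, beside 7.36% and 15.8%. In the other comparison 3 of 14 were lower and 4 higher (21.4% and 28.6%, beside 28.9% and 23.9%). These became 3 and 2 with normexp, beside 20.3% and 10.5% of all genes. With the percentile over detected probes they became 2 and 6, beside 23.1% and 28.8%. *INHBB*, the beta B subunit of activin and inhibin, was at -2.41 with *miR-139-3p* and -0.41 after *miR-139-5p*, and *BMP6* was at -2.23 (-1.11 with normexp) and 0.08. *GDF15*, a stress-induced ligand that signals through GFRAL, was at 1.21 with *miR-139-3p* and -1.65 after *miR-139-5p*. *BMP7* was at 0.82 over 2 probes and -1.50 on 1 probe in the same order, and with normexp at 0.43 and -0.42, within the threshold. *BMP8B* was at 2.06 with *miR-139-3p* on the probe that could be measured, while its second probe was lower as a bound, so the probes of this gene disagree. With *miR-139-5p* its probes had opposite signs, at -0.61 and 0.37, so their mean of -0.12 describes neither.

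Latent TGF-beta binding proteins hold secreted TGF-beta in the matrix, and integrins of the alpha V class release it. Of 12 genes for latency and activation, 7 were measured in each comparison. After *miR-139-3p*, 3 were higher (42.9%, beside 23.9% of all genes) and 2 lower (28.6%, beside 28.9%). Without scaling and with either E1A scaling 1 was higher and 2 were lower, beside 17.4% and 39.2% of all genes without scaling. With normexp 1 was higher and 1 lower, beside 10.5% and 20.3%. After *miR-139-5p*, 1 was lower and 1 higher (14.3% each, beside 11.5% and 10.2%). *ITGAV*, the alpha V subunit, was at 0.53 with *miR-139-3p* and 1.01 after *miR-139-5p*, and its partner *ITGB8* was at 0.92 and 0.07. With *miR-139-3p* neither call was stable: *ITGAV* was at 0.32 without scaling and 0.47 with normexp, and *ITGB8* at 0.45 with quantile normalization, 0.44 with the deposited values and 0.20 with normexp. *FBN2*, a fibrillin of the matrix, was at -0.58 and -1.07, the first of which became -0.44 with the percentile over detected probes and -0.42 with normexp. Among the binding proteins, *LTBP3* was at -0.88 and -0.32, and *LTBP4* at 0.68 (0.47 without scaling) and -0.17 (0.10 with the brightest probe). The 2 probes of *LTBP1* disagreed in sign, at 0.25 and -0.56 with *miR-139-3p* and at 0.26 and -0.04 after *miR-139-5p*, so no direction is given for it. *LTBP2* cleared background after *miR-139-3p* alone.

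Receptors were more often higher than lower with *miR-139-5p*. Of 11 measured, 7 were higher and 1 lower (63.6% and 9.09%, beside 10.2% and 11.5% of all genes). The median log2 fold change was 0.53 beside 0.00 for all genes. With normexp 1 of the 11 was higher and 0 lower, beside 3.61% and 4.39% of all genes, with a median of 0.25 beside 0.01. With *miR-139-3p*, 10 were measured, of which 3 were higher and 1 lower (30% and 10%, beside 23.9% and 28.9% of all genes). The median was 0.16, beside -0.09 for all genes. This balance depends on the settings, and so do the values of all genes. With quantile normalization 2 were higher and 2 lower, with a median of -0.18 beside -0.12 for all genes. Without scaling 2 were higher and 3 lower, with a median of -0.05 beside -0.30 for all genes. With normexp 1 was higher and 0 lower, beside 10.5% and 20.3% of all genes. The type II receptors *TGFBR2*, *BMPR2* and *ACVR2B* were at 0.85, 0.92 and 0.94 with *miR-139-5p*, and *ACVR2A*, the remaining type II receptor measured, at 0.14. With normexp *BMPR2* was at 0.27 and *ACVR2B* also fell within the threshold. With *miR-139-3p*, *TGFBR2* was at 0.78, *BMPR2* at 0.80 (0.24 with normexp and 0.50, not past the threshold, in the deposited values) and *ACVR2A* at 0.56. The *ACVR2A* call ended without scaling, with either E1A scaling, with quantile normalization, in the deposited values and with normexp. The spot of *ACVR2B* was left out with *miR-139-3p* as an outlier, and it was at 2.16 with outlier spots kept. *TGFBR3*, the coreceptor betaglycan, was at 1.02 with *miR-139-5p* (0.40 with normexp) and -0.42 after *miR-139-3p*, the latter past the threshold without scaling (-0.63) and with quantile normalization (-0.75). The type I receptor *TGFBR1* was at 0.53 and 0.22 in that order, and *ACVR1*, a type I receptor for BMPs and activins, at -0.55 and -0.73. The *TGFBR1* call with *miR-139-5p* ended without scaling (0.46) and with normexp (0.25), and its value after *miR-139-3p* turned to -0.09 in the deposited values and was also below 0 with quantile normalization. *ACVR1* was within the threshold in both comparisons with normexp (-0.25 and -0.37), and with *miR-139-5p* also with the brightest probe (-0.44) and the added E1A scaling (-0.43).

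*SMAD3*, which carries TGF-beta and activin signals, had normalized log2 signals of 4.36 on the mock array, 4.48 with *miR-139-5p* and 4.67 after *miR-139-3p*. Its log2 fold changes were 0.12 ± 0.06 and 0.31 ± 0.06, both within the threshold. With *miR-139-3p*, quantile normalization brought it to 0.51, just past the threshold. *SMAD7*, an inhibitory SMAD that TGF-beta itself induces, had signals of 1.25, 1.17 and 1.43 and log2 fold changes of -0.08 ± 0.08 and 0.18 ± 0.08.

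Among all 8 SMAD genes, 7 were measured in each comparison. With *miR-139-5p* 0 of 7 passed the threshold, beside 10.2% of all genes higher and 11.5% lower. With *miR-139-3p* 1 of 7 was higher and 0 lower (14.3% and 0%, beside 23.9% and 28.9% of all genes). This was *SMAD2*, the partner of *SMAD3* in TGF-beta signaling, at 0.89, against -0.25 with *miR-139-5p*. With normexp *SMAD2* was at 0.47, so that 0 of 7 passed. The common partner *SMAD4* was at -0.21 with *miR-139-3p* and -0.17 after *miR-139-5p*, *SMAD5* at 0.37 and -0.05, and the inhibitory *SMAD6* at -0.32 and -0.29. Without scaling, *SMAD6* passed the threshold after *miR-139-3p*, at -0.53, and *SMAD5* was just past it there with the percentile over detected probes.

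Inhibitors of the pathway comprise secreted ligand traps and proteins that act on receptors or SMADs. With *miR-139-5p*, 13 were measured, of which 7 were higher and 1 lower (53.8% and 7.69%, beside 10.2% and 11.5% of all genes). Their median was 0.54. With normexp 2 were higher and 0 lower, beside 3.61% and 4.39% of all genes, with a median of 0.22 beside 0.01. With *miR-139-3p*, 14 were measured, of which 4 were higher and 4 lower (28.6% each, beside 23.9% and 28.9% of all genes). Their median there was 0.23, beside -0.09 for all genes. The inhibitor median became 0.02 without scaling and with E1A scaling to all its probes, beside -0.30 for all genes in each. With quantile normalization it was 0.06, beside -0.12. The 4 higher became 2 with quantile normalization, the deposited values, no scaling and either E1A scaling, each with 4 lower. With normexp 1 was higher and 3 were lower, beside 10.5% and 20.3% of all genes. *FST*, which binds activin, was at 0.77 with *miR-139-5p* and -1.27 after *miR-139-3p*. *GREM1*, a BMP antagonist, was at -0.67 and -2.29. *CHRD*, another BMP antagonist, was at -0.15 and 1.54. *BAMBI*, a pseudoreceptor, was at 0.75 and -0.24, and *SKIL*, a SMAD corepressor, at 0.59 and -0.19. *SMURF2*, a ubiquitin ligase for SMADs and receptors, was at 1.12 with *miR-139-5p* and 1.13 after *miR-139-3p*, and with normexp at 0.22 and 0.25, so both calls ended there. With normexp *GREM1* was at -0.24 and -0.68, *SKIL* at 0.43 with *miR-139-5p* and *CHRD* at 0.60 after *miR-139-3p*. *CHRD* with *miR-139-5p* turned to 0.22 with no filter on dim probes.

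*ID1*, a BMP target that restrains differentiation, had normalized log2 signals of 6.49 on the mock array, 6.17 with *miR-139-5p* and 6.29 after *miR-139-3p*. Both transfected arrays lay below mock, with log2 fold changes of -0.32 ± 0.06 and -0.20 ± 0.06 that did not pass the threshold. Of 6 BMP targets, 5 were measured in each comparison. After *miR-139-5p*, 2 were lower and 2 higher (40% each, beside 11.5% and 10.2% of all genes). After *miR-139-3p*, 2 were lower and 1 higher (40% and 20%, beside 28.9% and 23.9%). The 2 lower with *miR-139-5p* became 0 with quantile normalization, the deposited values, normexp, and E1A scaling to probes well above background, and 1 with E1A scaling to all its probes. With normexp 0 were lower with *miR-139-3p*, where *ATOH8* was at -0.30 and *HEY1* at -0.03. *HEY1*, a transcriptional repressor, was at 2.02 with *miR-139-5p* and -0.77 after *miR-139-3p*. *ATOH8* was at -0.52 and -2.02, *ID4* at -0.55 and 1.92, and *ID2* at 0.80 and 0.44. *ID2* passed the threshold after *miR-139-3p* with quantile normalization and the deposited values (0.62 in both) and with the percentile over detected probes (0.57). With normexp *HEY1* was at 0.75 with *miR-139-5p* and *ID4* at 0.90 after *miR-139-3p*. *ID3* has no value, since its spot was left out as an outlier on both arrays of slide 1.

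Of 14 TGF-beta targets, 9 were measured with *miR-139-3p*. Of these, 5 were lower and 2 higher (55.6% and 22.2%, beside 28.9% and 23.9% of all genes). The median was -0.61 beside -0.09 for all genes. With the percentile taken over detected probes, 3 were lower and 2 higher, with a median of -0.47 beside 0.05 for all genes. With normexp likewise 3 were lower and 2 higher, with a median of -0.27 beside -0.04. Without scaling, 6 were lower and 2 higher, with a median of -0.82 beside -0.30. *PMEPA1*, a feedback inhibitor of TGF-beta signaling, was at -1.15 with *miR-139-3p* and 0.73 after *miR-139-5p*, and its 2 probes had the same sign in each comparison. The matrix protein *TGFBI* was at -0.79 and 0.13. *CCN2*, a matricellular protein, was at 1.47 with *miR-139-3p* (0.84 with normexp) and -0.52 after *miR-139-5p*. Its *miR-139-5p* value was within the threshold with quantile normalization, the deposited values, normexp and either E1A scaling. With *miR-139-5p*, 10 targets were measured, of which 3 were higher and 2 lower (30% and 20%, beside 10.2% and 11.5% of all genes). The 2 lower became 1 with quantile normalization, the deposited values, normexp and either E1A scaling. The collagens *COL1A1* and *COL4A1* were at 1.41 and 1.19 with *miR-139-5p*, against -0.61 and -0.43 with *miR-139-3p*. The latter depend on the setting: *COL1A1* was at -0.47 with the percentile over detected probes and -0.20 with normexp, and *COL4A1* passed the threshold without scaling and with either E1A scaling, from -0.64 to -0.62.

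**Figure D3:**
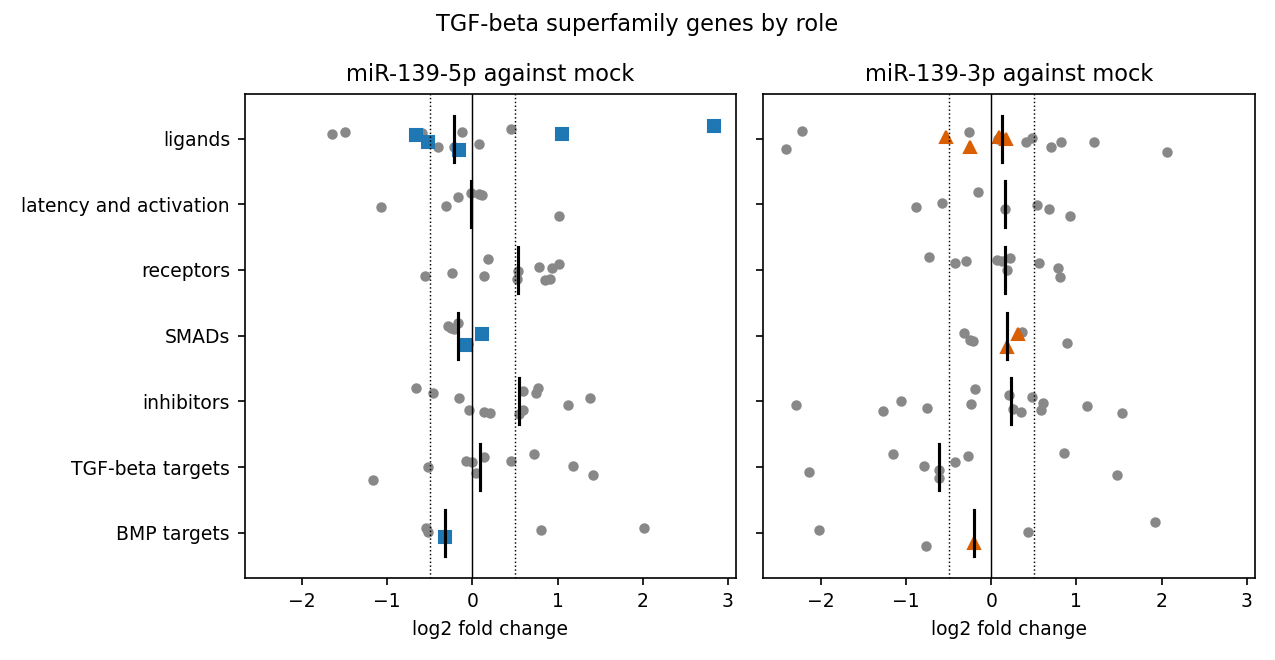
Log2 fold change (x axis) with miR-139-5p and miR-139-3p against mock of the superfamily genes measured on both arrays, by role (y axis), with gray dots for other genes, colored symbols for the 10 members where measured, black bars at the median of each role and dotted lines at the threshold of 0.5. With miR-139-5p the medians of receptors and inhibitors lie at 0.53 and 0.54 (0.25 and 0.22 with normexp, not drawn), and with miR-139-3p the median of TGF-beta targets lies at -0.61.

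Over the whole list, 66 genes were measured in each comparison. After *miR-139-5p*, 22 were higher (33.3%, beside 10.2% of all genes) and 12 lower (18.2%, beside 11.5%), with a median of 0.06. With normexp 10 were higher and 3 lower, beside 3.61% and 4.39% of all genes. After *miR-139-3p*, 18 were higher (27.3%, beside 23.9%) and 17 lower (25.8%, beside 28.9%), with a median of 0.11. That balance moved with the scaling, and so did that of all genes. Without scaling 12 were higher and 21 lower, beside 17.4% and 39.2% of all genes. With E1A scaling to all its probes the counts were the same, beside 17.3% and 39.2%. With the percentile over detected probes 23 were higher and 13 lower, beside 28.8% and 23.1%. Without the 10 members, 20 of 58 were higher and 10 lower with *miR-139-5p*, whereas 18 of 59 were higher and 16 lower with *miR-139-3p*. These counts describe the arrays and were not tested.

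**Figure D4:**
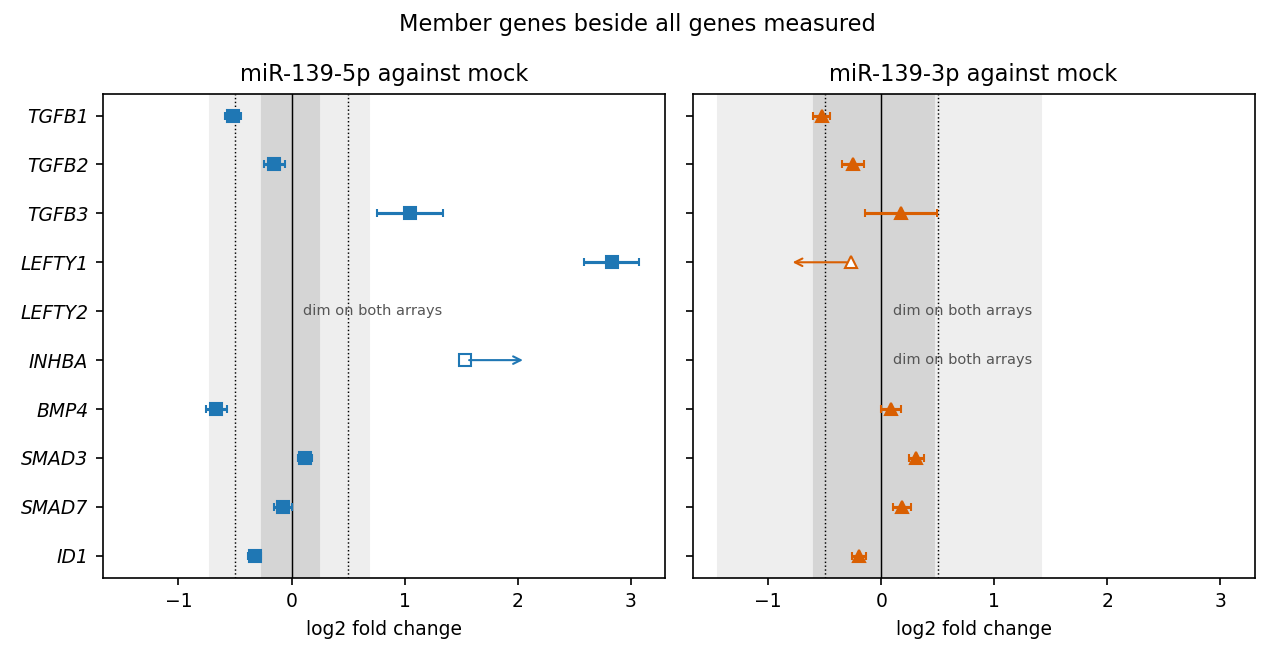
Log2 fold change (x axis) of the 10 genes (y axis) with miR-139-5p and miR-139-3p against mock, with bars for the spread between spots, open symbols with arrows for bounds, dotted lines at 0.5 either side of 0, and gray bands from the 5th to the 95th (light) and the 25th to the 75th (dark) percentile of all genes measured. LEFTY1 at 2.83 and TGFB3 at 1.05 lie beyond the 95th percentile of 0.68 with miR-139-5p, and the INHBA bound of 1.53 does too, while with miR-139-3p the measured genes lie within the 5th to 95th percentile range of -1.44 to 1.41.

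Promoter windows were searched for SMAD motifs on both strands, in the 250 bases before each start in RefSeq on GRCh38.p14. Of the 10 genes, 8 matched the table, with 17 windows. *LEFTY1* and *LEFTY2* had no entry in it and were not searched. The palindromic motif GTCTAGAC was in 0 of these windows and in 0.182% of 35116 windows of all genes. The GC-rich motif GGCGCC was in 2 of 17 windows (11.8%), those of *BMP4* and *SMAD3*, and in 16.4% of all windows. The CAGA box CAGACA was in 3 of 17 (17.6%) and in 13.6% of all windows, and these matches are shown because the CAGA box is a known SMAD3 motif, in capitals, on the strand of the gene, where TGTCTG is the motif on the opposite strand. They lie at chr1:218345271-218345300 (plus strand), chr14:53953425-53953454 (minus strand) and chr15:67137875-67137904 (plus strand) in the order given.
*TGFB2*: ctttgttgaaggCAGACAcgtggttcagag
*BMP4*: aaaaacagagccTGTCTGcggtggagtctc
*SMAD3*: ttggatttcttcTGTCTGggtgttgccagg
The motifs do not overlap each other. A match describes these letters and is not shown to be bound.

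The cultures were checked against markers. Of the epithelial and A549 genes with a value, 7 of 7 cleared background on the mock array, 7 of 7 with *miR-139-5p* and 8 of 8 after *miR-139-3p*. Their summed signal, relative to the 75th percentile of the array, was 1928, 1648 and 1170, and the probes with the highest signal were those of *KRT18*, *AKR1B10* and *KRT18*. Probes differ in how they bind, so the highest signal of a list is not a ranking of RNA abundance. Of 5 fibroblast markers, 2 were well above background on each array, with summed relative signals of 0.559, 1.26 and 0.474. *COL1A1* had the highest signal of them on every array, at -1.22, 0.19 and -1.84 on the normalized log2 scale. *PDGFRB*, the other detected marker, was at -3.76, -3.70 and -2.82 on its brightest probe. After *miR-139-3p* it was thus above mock where *COL1A1* was below, and the sum does not show this. *COL1A2*, *DCN* and *LUM* were not well above background on any array. Of 3 leukocyte markers with a probe 1, 1 and 2 were well above background, with summed relative signals of 0.165, 0.168 and 0.358 and the highest signal for *PTPRC*. Of 3 endothelial markers 2, 1 and 2 were, with sums of 0.241, 0.211 and 0.462 and the highest signal for *CDH5*, and *PECAM1* was not well above background on any array. The part of other cells in the values above was not tested.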

How the data were processed

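Genome-wide mRNA was measured on 3 arrays of 1 colour. Per the file headers, Feature Extraction 12.1.1.1 made the processed intensity of each spot by subtracting background, and the arrays were not normalized to each other. The authors deposited a second table of log2 values per probe, which were quantile-normalized signals (96.7% or more of probes within 0.1 of a recomputed value), used as an alternative.

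Each log2 intensity had the log2 75th percentile of the non-control spots subtracted. Outlier spots were dropped and the spots of a probe averaged. A probe needed 50% of its spots well above background to count as such, and a gene value is the mean over these probes. Spots well above background made up 49.9% for mock, 48.1% for *miR-139-5p* and 53.1% on the remaining array. Between probes of the same gene, the log2 fold change had a median SD of 0.15 for *miR-139-5p*, whereas for *miR-139-3p* it was 0.28. RefSeq names (GRCh38.p14) matched 24751 of 25277 probes with an NM accession.

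The members and lists were chosen with earlier results of these data known. Beside the members, the text names a fixed set of pathway genes and, per role, the 3 with the largest absolute change with *miR-139-3p* and the 2 with *miR-139-5p*. Some genes that this rule names are not reported here. Genes with a pattern like LEFTY were to be named if a LEFTY gene was measured on all arrays, and neither was. In total, 12 alternatives were run for scaling, background, filters, probes, threshold and the deposited values. Another was added after the data were seen: scaling to the 7 of 10 E1A spike-in probes well above background on all arrays, written once the result of the first scaling, to all 10, was known. Both are given. The gene values were tested on simulated arrays made from the mock array, with known changes well past the threshold in some genes. The marks for signal well above background were left as they were. The filter on dim probes, the bounds and normexp were thus not tested. Python 3.11.15, numpy 2.4.6, pandas 2.3.3, matplotlib 3.10.9, R 4.3.3 and limma 3.58.1 were used.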

Additional observations from a re-analysis of the deposited data

How the results depend on the processing

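Of 104 counts over 8 results and 13 alternatives, 80 stayed within 1.5 times. The rest were as follows. Members lower with *miR-139-3p* (1) became 0 with quantile normalization, the deposited values, the percentile over detected probes and a threshold of 1, and 2 with no filter on dim probes; members higher (0) became 1 with quantile normalization and the deposited values. Members lower with *miR-139-5p* (2) became 1 with either E1A scaling and 0 with normexp and a threshold of 1, and members higher (2) became 1 with normexp and, as *LEFTY1* then has no value, with detection on all arrays. With *miR-139-3p*, list genes lower and higher (17 and 18) were 10 and 8 with normexp and 8 and 6 with a threshold of 1, and 31 were higher with no filter on dim probes. With *miR-139-5p* (12 and 22) they were 3 and 10 with normexp and 4 and 9 with a threshold of 1, with 19 lower with no filter on dim probes and 6 lower with the added E1A scaling. A threshold of 1 lowers counts by construction, and without the filter more genes have a value. No scaling, the E1A scalings and the percentile over detected probes shift all genes of a comparison by the same amount. The offset of normexp draws the log2 fold changes of dim probes towards 0 by construction. Of all genes, 3.61% were higher and 4.39% lower with normexp after *miR-139-5p*, and 10.5% and 20.3% after *miR-139-3p*. For the other settings the cause was not tested. *BMP8B* with *miR-139-3p* went to -0.39 with no filter on dim probes, which adds its second, dim probe.

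The median of all genes with *miR-139-3p* shifted by -0.21 without scaling, -0.21 with E1A scaling, -0.19 with the added E1A scaling and 0.14 with the percentile over detected probes, and with *miR-139-5p* by 0.12 with the added E1A scaling. With no filter on dim probes, which takes in more genes, it shifted by 0.17 and 0.11, and 53.7% of genes past the threshold with *miR-139-3p* were higher. The share of higher genes among all those past the threshold was 45.2% with *miR-139-3p*, and 30.7%, 30.6%, 31.7% and 55.5% under these scalings, and with *miR-139-5p* 47.1%, 34.0% without scaling and 68.2% with the added E1A scaling. The E1A scalings differ for *miR-139-5p*, where the one to all 10 probes gave a shift of 0.03. Of 179 member values under alternatives, 5 moved by more than the spread between probes. The sign turned in 12 of the 179, for *TGFB3* and *BMP4* with *miR-139-3p* and *SMAD7* in both comparisons, all within the threshold of 0.5 at first, so that 0 values past it turned. Of 898 for other named genes, 72 moved, and 1 past the threshold turned its sign, that of *BMP8B*. Signal over background limits *LEFTY1*, *LEFTY2*, *INHBA* and *TGFB3*, the members nearest to or below the lowest well-above signal.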

Other observations

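Some genes of the superfamily list that the naming rule did not reach gave only a bound in a comparison, and they are named here after their values were seen. *RGMA*, a BMP coreceptor, was at least 11.0-fold higher with *miR-139-3p* than with mock, and *SMAD9* at least 2.59-fold higher. *FN1*, a matrix gene, was at least 4.98-fold lower with *miR-139-3p* and at -0.07 on the log2 scale with *miR-139-5p*. *NOG*, a BMP antagonist, was at least 2.03-fold lower with *miR-139-5p* and at 0.61 with *miR-139-3p*.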
